A study of Mus musculus with 21 samples.

Results

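Complement components and regulators were followed in mRNA sequencing of podocyte fractions from young and middle-aged mice. The 9 genes, *C1qa*, *C1qb*, *C1qc*, *C2*, *C3*, *C4b*, *Cfb*, *Cd55* and *Cr1l*, were chosen by name, matched to their Entrez Gene numbers and found in the tables of all 21 libraries, which list 27179 genes. All 9 passed the filter on low counts. The mice were male C57BL/6J wildtype animals, and each library came from 1 mouse. The groups were 6 young, untreated mice of 4 months, 7 middle-aged mice of 19.5 months given saline, and 8 middle-aged mice of the same age given MCC950, a small-molecule inhibitor of the NLRP3 inflammasome, at 10 mg/kg for 6 weeks from 18 months of age. The fractions were cells of digested cortex retained on a magnetic column by nephrin antibodies, so other cell types can be carried along.

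Complement is a cascade of plasma proteins and cell-surface receptors that marks microbes, immune complexes and dying cells. The classical pathway starts when C1q, built from the 3 chains encoded by *C1qa*, *C1qb* and *C1qc*, binds its target, after which C4 and C2 are cleaved to form a convertase that splits C3. The alternative pathway amplifies C3 cleavage through factor B, encoded by *Cfb*. Decay-accelerating factor, encoded by *Cd55*, and Crry, encoded by *Cr1l*, sit on host cells and restrain both convertases. In the kidney, C1q is made mainly by macrophages, factor B and C3 can be made by tubular cells, and the glomerulus is a frequent site of complement deposition in disease.

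Young libraries held 27375870 to 36827823 counts, saline libraries 45772937 to 84876399 and MCC950 libraries 35440472 to 58247271. Of these, 51.53% to 80.41%, 63.04% to 79.21% and 49.92% to 63.68% were mitochondrial in the same order. Counts outside the mitochondrial genes were 5804891 to 13269290, 14362648 to 27818925 and 16118731 to 28569185. Age and this depth thus went together for both middle-aged groups. The podocyte label was set against marker genes, in CPM (counts scaled to 1000000 per library after TMM normalization). All 10 podocyte markers were detected in every library, but their summed level was 757 to 1632 CPM in young, 314 to 573 in saline and 405 to 638 in MCC950 libraries. Other cells were present throughout. The 12 macrophage markers summed to 389 to 1808 CPM in young, 1428 to 3193 in saline and 782 to 3024 in MCC950 libraries, with the defining markers *Csf1r*, *Adgre1* and *Cd68* above 0 in every library. The 10 proximal tubule markers summed to 1323 to 3811, 1086 to 2531 and 1785 to 4134 CPM in the same order. The 4 hepatocyte markers summed to 4.52 to 11, 4.1 to 10.7 and 10.5 to 37.7 CPM in the same order. Of these, *Alb* was between 0.199 and 3.1 CPM in any library, and *Ttr* reached 18.9 in MCC950 libraries. The 6 T cell markers summed to at most 17.1 CPM, with *Cd3e* at most 1.52 and *Cd2* up to 11.7. The 6 B cell markers summed to 39.1 to 173 CPM in young and 398 to 574 in saline libraries. In MCC950 libraries their sum had a median of 234 CPM and reached 645. As these are bulk fractions, fewer cells of a type and less RNA per cell cannot be told apart.

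By mean level per kilobase of exon, C1q transcripts were the most abundant of the 9 genes in every group, and the order *C1qa*, *C1qc*, *C1qb*, *Cfb* was the same in all 3 groups. The ranges of *C1qb* and *Cfb* overlapped in young (11.7 to 60.5 and 10.6 to 28.6) and MCC950 libraries (24.1 to 97.3 and 13.3 to 34.9). They did not in saline libraries. In saline libraries the levels were 498 ± 156 CPM per kilobase for *C1qa* (SD, n = 7), 196 ± 57.4 for *C1qc*, 67.6 ± 22 for *C1qb* and 16.6 ± 5.53 for *Cfb*. The other 5 genes lay far lower, from 1.22 ± 0.11 for *Cr1l* to 2.79 ± 0.945 for *C3* in the saline libraries. Among these, the ranges of *Cd55*, *C3* and *C2* overlapped in every group, and their order differed between groups. By its mean *C4b* was the lowest of the 9 in young libraries, where its range lay below that of *Cr1l*. *Cr1l* was the lowest in both middle-aged groups, and its range overlapped that of the next gene in the order, *C4b* in saline and *C3* in MCC950 libraries.

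**Figure D1:**
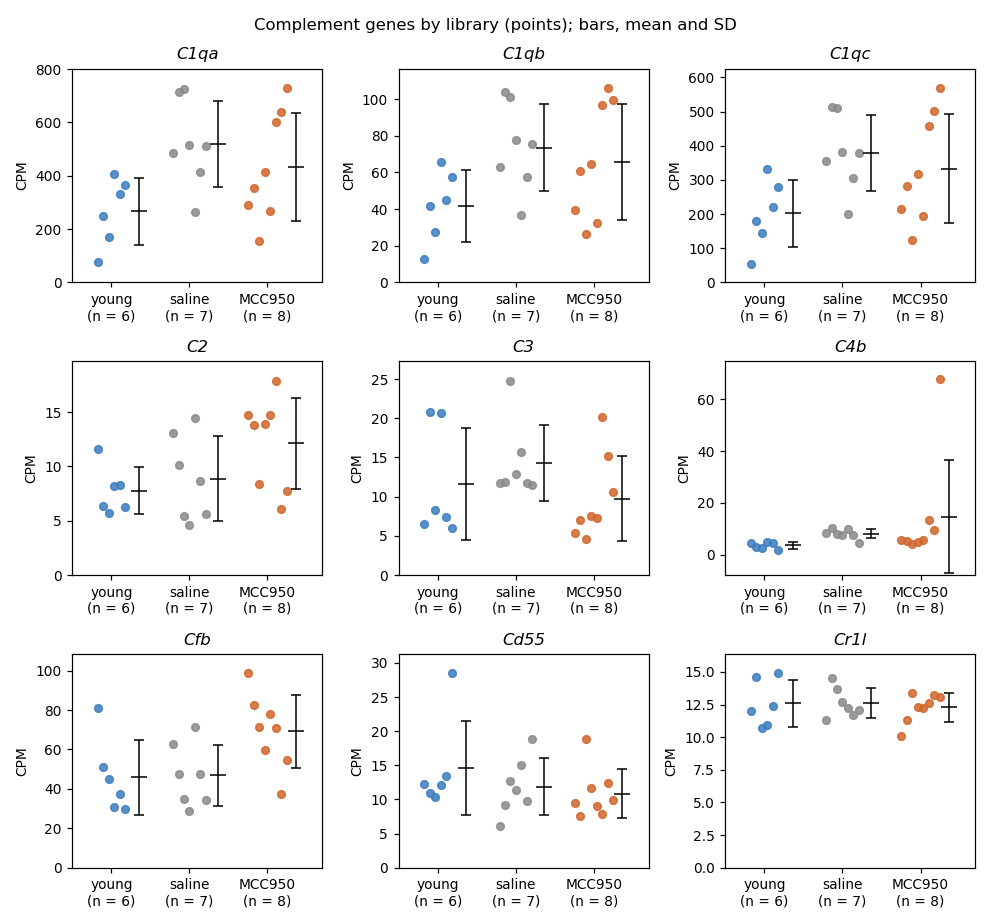
CPM of each of the 9 complement genes on a linear axis, with 1 point per library in 6 young, 7 saline and 8 MCC950 libraries and the mean and SD at the right of each group. The *C1qa*, *C1qb* and *C1qc* panels show the same arrangement of libraries, *C4b* has 1 MCC950 library at 68 CPM, and *Cr1l* stays between 10.1 and 14.9 CPM.

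The first comparison, of saline-treated middle-aged with young mice, is called the difference with age below. The young mice were untreated, so age and the saline injections cannot be told apart. The comparison of MCC950-treated with young mice joins age and injection in the same way. No member of the 9 passed an adjusted p under 0.05 in edgeR's quasi-likelihood test over all 16377 genes tested, while 12.2% of those genes were higher and 12.4% lower in the saline libraries. With DESeq2 3 members passed, *C1qa*, *C1qc* and *C4b*. The 12.2% and 12.4% are edgeR shares and are no measure for this count. DESeq2 also called more of all genes than edgeR did, both higher and lower, so the count does not set the members apart. An unadjusted p under 0.05 was found for 4 of 9 members, *C1qa*, *C1qb*, *C1qc* and *C4b*, all with higher means in the saline group, beside 36.9% of all genes tested. The log2 fold change was above 0 for 8 members and below 0 for 1, with a median of 0.30 over the members and 0.02 over all genes tested. No member separated the groups without overlap, as 9.37% of all genes did.

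The second comparison, of MCC950-treated with saline-treated mice, asks what the inhibitor changed at the same age. Again 0 of 9 members passed with edgeR, beside 11.9% of all genes higher and 4.86% lower, and the DESeq2 count was also 0. Only *Cfb* had an unadjusted p under 0.05, beside 31.6% of all genes. Here 3 members had a log2 fold change above 0 and 6 below it, with a median of -0.13, where the median of all genes was 0.00. No member separated these groups, against 1.74% of all genes.

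In the third comparison, of MCC950-treated with young mice, 1 member passed, *C4b*, which was higher in the MCC950 group, beside 21.8% of all genes higher and 16.5% lower. Before adjustment, p was under 0.05 for 3 members, *C4b*, *C2* and *Cfb*, beside 47.7% of all genes. The median log2 fold change was 0.64 for the members and 0.08 for all genes, and no member separated the groups, against 7.94% of all genes. This comparison shares its MCC950 libraries with the second and its young libraries with the first, so the 3 are not independent.

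**Figure D2:**
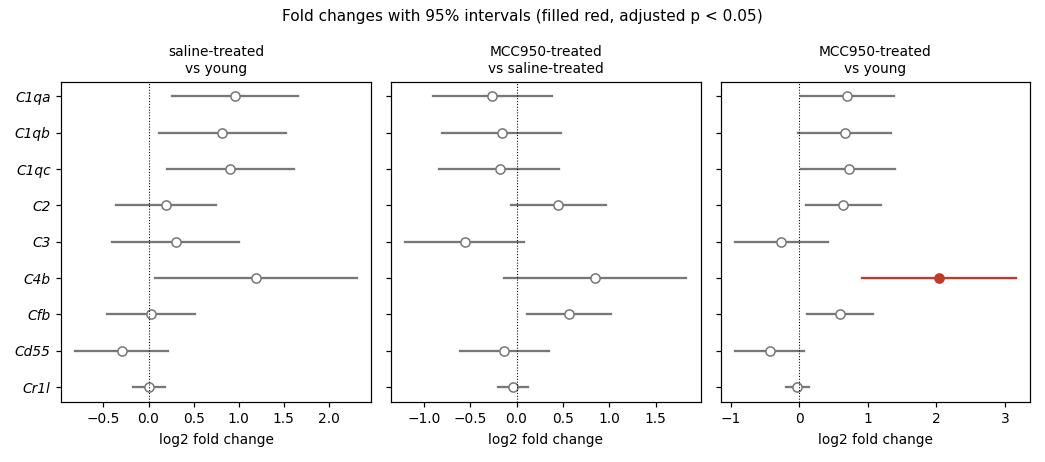
Log2 fold change of each member in edgeR, 1 panel per comparison, with filled red points marking an adjusted p under 0.05. Lines span approximate 95% intervals taken as 1.96 SE on each side, which are narrower than the F test gives. *C1qa* in MCC950-treated against young mice has 0.02 to 1.38, with an unadjusted p of 0.0568 in that test. The only filled point is *C4b* in MCC950-treated against young mice, at 2.04. The intervals of *C1qa*, *C1qb*, *C1qc* and *C4b* lie to the right of 0 in saline-treated against young mice.

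The 3 C1q genes lie side by side on chromosome 4 (GRCm38, minus strand), with *C1qb* at chr4:136880126-136886200, *C1qc* at chr4:136889801-136892936 and *C1qa* at chr4:136895916-136898844. Promoter sequences from RefSeq (GRCm38.p6), covering 250 bases before to 50 bases after the start, were matched for 5 of the 9 members, *C1qb*, *C1qc*, *C3*, *Cd55* and *Cr1l*. They are shown for *C1qb* and *C1qc* because these genes moved together from library to library. Capitals mark matches on either strand to GAGGAA, the core that the macrophage and B-cell factor PU.1 binds, to GGGNNNTCC, an NF-kB-type motif, and to TTGCGNAA, a C/EBP-type motif.
*C1qb*, chr4:136886151-136886450, minus strand: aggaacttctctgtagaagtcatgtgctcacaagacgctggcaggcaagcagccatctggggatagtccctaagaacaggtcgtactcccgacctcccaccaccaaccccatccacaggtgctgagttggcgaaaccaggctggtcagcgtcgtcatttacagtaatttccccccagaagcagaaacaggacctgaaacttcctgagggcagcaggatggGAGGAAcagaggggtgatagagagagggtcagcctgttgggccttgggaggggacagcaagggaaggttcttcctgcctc
*C1qc*, chr4:136892865-136893164, minus strand: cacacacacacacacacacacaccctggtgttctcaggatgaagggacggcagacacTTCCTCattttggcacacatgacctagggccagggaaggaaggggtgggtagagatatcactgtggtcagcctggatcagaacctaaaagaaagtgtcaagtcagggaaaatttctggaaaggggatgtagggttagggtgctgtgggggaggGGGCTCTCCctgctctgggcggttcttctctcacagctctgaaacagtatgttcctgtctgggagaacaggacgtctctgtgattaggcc
Both promoters hold 1 match to GAGGAA, on opposite strands, which 28.3% of all 32851 promoter windows in the table also hold, and the *C1qc* promoter has a match to GGGNNNTCC, which occurs in 17.8% of windows. A match of letters is a description and does not show that the factor binds there.

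*C1qa* encodes the A chain of C1q. Its level in young libraries was 75.5 CPM at the lowest, 290 at the median and 405 at the highest. The saline libraries had 265, 511 and 727 CPM at the same points, and the MCC950 libraries 157, 385 and 729. Of the 7 saline libraries 6 were above every young library, and the lowest saline library, replicate 5, lay within the young range. The mean was 266 ± 125 CPM in young and 518 ± 163 in saline libraries (SD), a log2 fold change of 0.96 (standard error, SE, 0.36 and adjusted p = 0.0534). The adjusted p ranged from 0.0355 to 0.125 when each of the 21 libraries was left out in turn, and it was under 0.05 without young replicate 4 (0.0408), young replicate 6 (0.0458), saline replicate 5 (0.0355), MCC950 replicate 3 (0.0363) or MCC950 replicate 8 (0.0476). With DESeq2 it was 0.0258.

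*C1qb* and *C1qc* encode the B and C chains and gave the same picture at their own levels. *C1qb* had a mean of 41.7 ± 19.4 CPM in young, 73.6 ± 23.9 in saline and 65.7 ± 31.7 in MCC950 libraries. Its lowest, median and highest libraries were 12.7, 43.3 and 65.8 CPM in young, 36.7, 75.3 and 104.1 in saline, and 26.3, 62.8 and 105.8 in MCC950 mice. The groups overlapped, with 4 of 7 saline libraries above every young one, and the log2 fold change with age was 0.82 (SE 0.36, adjusted p = 0.0989). For *C1qc* the lowest, median and highest libraries were 54.1, 201 and 333 CPM in young, 200, 378 and 514 in saline, and 125, 300 and 569 in MCC950 mice. Of the 7 saline libraries 5 exceeded every young one, with a log2 fold change of 0.90 (SE 0.36, adjusted p = 0.0708), and *C1qc* passed the threshold with DESeq2 (0.0402) and without young replicate 4 (0.0421) or saline replicate 5 (0.0486).

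After MCC950 the C1q means were lower than in the saline group, by less than the spread between mice. The log2 fold change was -0.26 for *C1qa* (SE 0.33, adjusted p = 0.619), -0.16 for *C1qb* (0.33, 0.772) and -0.18 for *C1qc* (0.33, 0.740). The 95% interval for *C1qa* ran from -0.90 to 0.38, so these libraries do not tell a marked fall from a small rise. Against young mice the MCC950 values were 0.70, 0.66 and 0.72 for *C1qa*, *C1qb* and *C1qc*, with adjusted p of 0.115, 0.140 and 0.108. The MCC950 libraries were widely spread, from 157 CPM in replicate 3 to 729 in replicate 8 for *C1qa*.

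The 3 chains kept a nearly fixed proportion in all libraries. Per kilobase, the ratio of *C1qa* to *C1qc* was 2.47 ± 0.131 (SD) over the 21 libraries, between 2.21 and 2.77, while *C1qa* itself varied from 75.5 to 729 CPM. The ratio of *C1qa* to *C1qb* was 7.03 ± 0.707. When each library was taken as its deviation from its group mean in log2 CPM, the correlation over the 21 libraries was 0.98 between *C1qa* and *C1qb*, 0.99 between *C1qa* and *C1qc* and 0.99 between *C1qb* and *C1qc*. These values come from the same libraries and share their depth and scaling.

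The C1q genes also followed the macrophage markers, the receptors and lysosomal genes that characterise these phagocytes. The mean log2 CPM of the 12 markers, which do not include C1q, had a correlation of deviations of 0.98 with each C1q gene over the 21 libraries. The score was 5.46 ± 0.76 in young, 6.48 ± 0.36 in saline and 6.08 ± 0.68 in MCC950 libraries (SD). It was 1.02 higher in saline than in young mice (exact permutation test, 2-sided, p = 0.00583), and 6 of the 12 markers passed the edgeR test in that direction. The score in MCC950 mice was 0.40 below that of saline mice (exact permutation test, 2-sided, p = 0.184). With the macrophage score as a covariate, the log2 fold change with age was -0.09 for *C1qa* (adjusted p = 0.567), -0.25 for *C1qb* (0.0597) and -0.14 for *C1qc* (0.304).

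Of 12243 other named genes with an average of at least 1 log2 CPM, those closest to *C1qa* and *C1qc* in their deviations were *P2ry6*, *Rgs10* and *Fcgr3*, and those closest to *C1qb* were *Axl*, *Pla2g15* and *Lpcat2*, each with r of 0.98 over 21 libraries. *Fcgr3* encodes a receptor for IgG on phagocytes, *P2ry6* a receptor for UDP, and *Axl* a receptor tyrosine kinase of phagocytosis. As many as 276, 356 and 295 genes reached r of 0.9 with *C1qa*, *C1qb* and *C1qc*, so the named genes stand for a large group that shares this pattern.

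**Figure D3:**
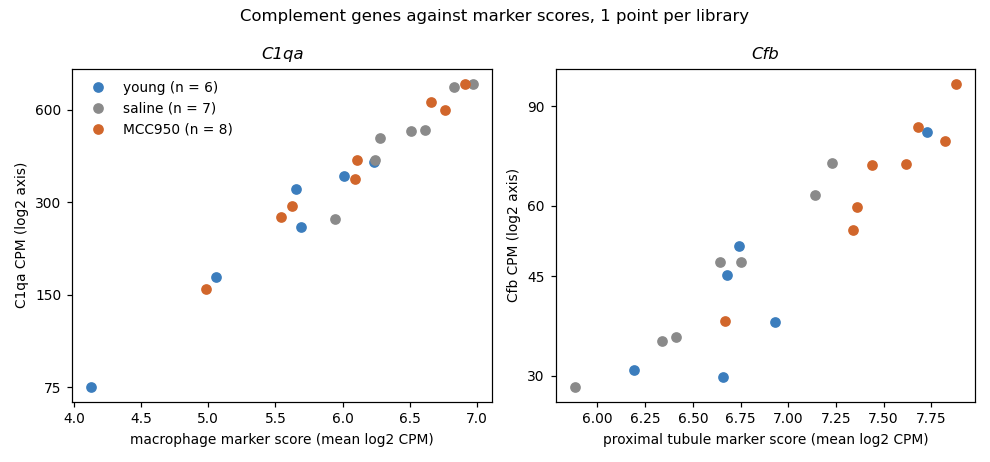
Left, *C1qa* in CPM against the mean log2 CPM of 12 macrophage markers, and right, *Cfb* in CPM against that of 10 proximal tubule markers, with log2 vertical axes and 1 point per library coloured by group. In both panels the libraries of the 3 groups lie along 1 rising band, with correlations of within-group deviations of 0.98 for *C1qa* and 0.93 for *Cfb*.

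*Cfb* and *C2* are neighbours in the class III region of the major histocompatibility complex on chromosome 17, at chr17:34856374-34862514 and chr17:34862602-34882100, and encode the related proteases of the alternative and classical convertases. *Cfb* was 29.9 CPM at the lowest, 41.3 at the median and 80.9 at the highest in young libraries. It was 28.7, 47.7 and 71.3 CPM in saline libraries and 37.5, 71.1 and 98.7 in MCC950 libraries. Young and saline mice covered the same range, with means of 45.8 ± 19 and 46.8 ± 15.6 CPM (SD), and the log2 fold change with age was 0.03 (95% interval -0.46 to 0.51, adjusted p = 0.947). With the macrophage score as a covariate it was 0.63 (adjusted p = 0.0443) and with the podocyte score -0.85 (0.271). The MCC950 mean was 69.1 ± 18.7 CPM, and 3 of the 8 MCC950 libraries were above every saline library.

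The log2 fold change of *Cfb* was 0.56 against saline mice (SE 0.23, adjusted p = 0.0976) and 0.59 against young mice (SE 0.24, adjusted p = 0.0593). Against saline mice it passed without saline replicate 5 (adjusted p = 0.0474) or MCC950 replicate 7 (0.0426), and over all fits that leave out 1 library the adjusted p ran from 0.0426 to 0.220. Against young mice it passed without young replicate 1 (0.00745), whose 80.9 CPM was the highest young value, or MCC950 replicate 7 (0.0262). *C2* had means of 7.77 ± 2.18 CPM in young, 8.86 ± 3.89 in saline and 12.1 ± 4.19 in MCC950 libraries. Its lowest, median and highest values were 5.75, 7.32 and 11.6 CPM in young, 4.62, 8.62 and 14.5 in saline, and 6.08, 13.8 and 17.9 in MCC950 mice. Of the 8 MCC950 libraries 5 were above every young library, with a log2 fold change of 0.64 (SE 0.28, adjusted p = 0.0719), and the value against saline mice was 0.45 (0.26, 0.242). Against young mice *C2* passed without young replicate 1 (0.0341) or MCC950 replicate 7 (0.0333).

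The libraries that were high in *Cfb* were low in C1q. The correlation of deviations over the 21 libraries was 0.77 between *Cfb* and *C2*, and -0.72, -0.74 and -0.74 between *Cfb* and *C1qa*, *C1qb* and *C1qc*. These values are shares of the same libraries. *Cfb* followed the proximal tubule markers, transporters and enzymes of the reabsorbing segment of the nephron, with r of 0.93, and *C2* with r of 0.76. The proximal tubule score was 6.82 ± 0.51 in young, 6.63 ± 0.47 in saline and 7.48 ± 0.38 in MCC950 libraries (SD), 0.85 higher in MCC950 than in saline mice (exact permutation test, 2-sided, p = 0.0028). With that score as a covariate, the log2 fold change of *Cfb* between MCC950 and saline mice was -0.26 (adjusted p = 0.202) and that of *C2* was -0.26 (adjusted p = 0.540). The genes closest to *Cfb* were *Fmo1* (r = 0.98), *Ugt1a7c* (0.97) and *Slc3a1* (0.96), the last an amino acid transporter subunit of the proximal tubule. Those closest to *C2* were *Nox4* (0.94), an NADPH oxidase abundant in kidney tubules, *Fuca1* (0.92) and *Fbp2* (0.91).

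*C3*, the protein on which all pathways converge, is on chromosome 17 at chr17:57203967-57228136. Its promoter is shown for the adjacent matches near the start site, a C/EBP-type match to TTGCGNAA 45 bases before it, which 0.798% of windows hold, and a match to GGGNNNTCC 33 bases before it.
*C3*, chr17:57228087-57228386, minus strand: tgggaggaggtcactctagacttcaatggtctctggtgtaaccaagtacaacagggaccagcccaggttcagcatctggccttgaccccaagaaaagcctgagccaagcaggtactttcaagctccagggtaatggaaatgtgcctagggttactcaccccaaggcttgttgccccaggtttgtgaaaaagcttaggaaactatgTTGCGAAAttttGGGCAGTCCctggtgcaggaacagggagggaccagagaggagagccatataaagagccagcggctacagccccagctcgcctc
The *C3* level was 6.06 CPM at the lowest, 7.84 at the median and 20.8 at the highest in young libraries, 11.5, 11.9 and 24.8 in saline libraries and 4.54, 7.41 and 20.2 in MCC950 libraries. Young replicates 2 and 4 were at 20.8 and 20.7 CPM and the other 4 at 8.26 or less, while 6 of 7 saline libraries lay between 11.5 and 15.7. Of the 8 MCC950 libraries 6 were below every saline library. The means of 14.3 ± 4.86 CPM in saline and 9.72 ± 5.39 in MCC950 libraries gave a log2 fold change of -0.56 (SE 0.33, adjusted p = 0.252), and the fits without 1 library gave an adjusted p from 0.0727 to 0.506. With age the log2 fold change was 0.30 (SE 0.36, adjusted p = 0.588) and the young mean was 11.6 ± 7.09 CPM. *C3* had r of 0.65 with the macrophage score, and the genes closest to it were *N4bp1* (0.86), *Ms4a6c* (0.82) and *Svil* (0.82).

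*C4b* encodes C4, the protein that C1s cleaves in the classical pathway, and lies at chr17:34728139-34743902. All 6 young libraries were low, at 1.88 CPM at the lowest, 3.58 at the median and 5.03 at the highest. The saline libraries had 4.64, 8.04 and 10.2 CPM, and 6 of 7 were above every young library. Of the 8 MCC950 libraries 7 lay between 4.07 and 13.3 CPM, and replicate 8 had 68 CPM, which was 58.3% of the sum of the group. The mean was 3.54 ± 1.25 CPM in young, 8.07 ± 1.82 in saline and 14.6 ± 21.8 in MCC950 libraries, or 6.95 ± 3.3 in the 7 MCC950 libraries without replicate 8 (SD).

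With age the log2 fold change was 1.19 (SE 0.57, adjusted p = 0.134) in the fit of all 3 groups, which share an estimate of the spread. Without MCC950 replicate 8 it was again 1.19, with an adjusted p of 0.00363, and in a fit of the young and saline libraries alone 0.00162. DESeq2 gave 1.17 (0.000174) and a fit with the replicate number as a block 1.19 (0.0104), but neither is a check apart from replicate 8. Number 8 occurs only in the MCC950 group, so its block term takes up that library, and DESeq2 by default can replace outlying counts. Between MCC950 and saline mice these fits gave -0.25 (0.511) and -0.26 (0.537). MCC950-treated exceeded saline-treated mice by 0.85 (SE 0.50, adjusted p = 0.256) with all libraries, but the value was -0.21 (0.589) without replicate 8. Against young mice *C4b* was 2.04 higher in the MCC950 group (SE 0.57, adjusted p = 0.00834) and 0.97 higher without replicate 8 (0.00936), and it passed in all 21 fits that leave out 1 library. It did not pass with the macrophage score as a covariate (1.02, adjusted p = 0.171) or with the podocyte score (1.16, 0.555), and its values with age were then 0.21 (0.835) and 0.03 (0.991). Its nearest neighbours over the libraries were *Gm21188* (r = 0.84), *Ly6e* (0.83), an interferon-inducible surface protein, and *Gm21370* (0.82). The near-identical *C4a* can share reads with *C4b*, so *C4b* values are uncertain. The mean of *C4a* was 1.06 to 1.62 CPM in the 3 groups, and how many reads the counting split between them was not measured.

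*Cd55* (chr1:130429798-130465009) and *Cr1l* (chr1:195098711-195131570) encode the membrane regulators. *Cd55* was 10.3 CPM at the lowest, 12.2 at the median and 28.5 at the highest in young libraries, 6.1, 11.4 and 18.8 in saline libraries, and 7.5, 9.71 and 18.8 in MCC950 libraries. Of the 6 young libraries 5 lay between 10.3 and 13.5 CPM, and replicate 6 had 28.5. The means of 14.6 ± 6.9, 11.9 ± 4.16 and 10.8 ± 3.64 CPM (SD) gave log2 fold changes of -0.29 with age (SE 0.26, adjusted p = 0.448), -0.13 for MCC950 against saline (0.24, 0.751) and -0.43 for MCC950 against young mice (0.25, 0.193). Without young replicate 6 the value with age was -0.00 (0.997) and that for MCC950 against young mice -0.15 (0.633). Its closest genes were *Arhgap26*, *Satb1* and *Scd1*, each with r of 0.88. The paralog *Cd55b*, which can share its reads, had a mean of 0.427 to 0.45 CPM.

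*Cr1l* was the steadiest of the 9 genes. Its lowest, median and highest values were 10.7, 12.2 and 14.9 CPM in young, 11.3, 12.2 and 14.5 in saline and 10.1, 12.5 and 13.4 in MCC950 libraries. The group means were 12.6 ± 1.81, 12.6 ± 1.14 and 12.3 ± 1.11 CPM (SD), and the 3 ranges lay over each other. The log2 fold change was 0.00 with age (95% interval -0.17 to 0.18, adjusted p = 0.982), -0.04 for MCC950 against saline (-0.20 to 0.12, 0.795) and -0.03 for MCC950 against young mice (-0.20 to 0.14, 0.786). Its closest genes had lower likeness than for the other members, with *Gm5643* at r of 0.78, *Donson* at 0.74 and *Ezh2* at 0.73. The annotated ends of *Cr1l* and the neighbouring regulator *Cd46* overlap, and *Cd46* had a mean of only 0.265 to 0.398 CPM.

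The rest of the pathway was described with a list of 49 other complement genes, of which 34 passed the filter. With age 8 of the 34 passed as higher and 3 as lower, with a median log2 fold change of 0.23, beside the 12.2% and 12.4% of all genes and their median of 0.02. Between MCC950 and saline mice 4 were higher and 0 lower, beside 11.9% and 4.86% of all genes, with a median of -0.02. Between MCC950 and young mice 11 were higher and 3 lower, beside 21.8% and 16.5% of all genes, with a median of 0.39. Altogether 18 genes passed in at least 1 comparison. The share of all genes that did so was not computed, so this pooled count does not set the list apart. Of the 18 genes, *Fcna*, *C6*, *C7* and *Vsig4* passed the filter on low counts through the middle-aged groups, which favoured calls of a rise against young mice. The 15 genes under the filter, among them *Hc*, *C9*, *Masp1*, *Masp2*, *Cfd* and *C4bp*, never exceeded 0.512 CPM in any library.

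Among the genes listed under the lectin pathway, *Fcna*, which encodes ficolin A, a pattern recognition protein of macrophages, was higher in middle-aged mice. It was 0 to 1.17 CPM in young, 2.68 to 11.3 in saline and 1.74 to 42 in MCC950 libraries, and both middle-aged groups lay above all young libraries. The log2 fold change with age was 4.13 (SE 0.86, adjusted p = 0.0016). Young replicate 4, at 1.17 CPM, held 66.9% of the young sum, and the value ran from 3.81 to 5.34 over the fits that leave out 1 library, in each of which it passed. *Fcna* passed the filter on low counts through the middle-aged groups, so a rise against young mice was favoured in advance. *Colec12*, a scavenger receptor collectin, was lower with age at -1.64 (0.50, 0.0200), though not without young replicate 3 (0.0533). *Mbl1*, a mannose-binding lectin, was higher in MCC950 than in saline mice by 1.40 (0.34, 0.0101), at 0.445 to 1.55 against 0.236 to 0.659 CPM. In the classical pathway *C1s1*, the protease that cleaves C4, was lower with age, at 5.61 ± 1.44 CPM in saline against 8.75 ± 1.89 in young libraries (log2 fold change -0.64, SE 0.19, adjusted p = 0.0187), and at -0.50 (0.19, 0.0395) in MCC950 against young mice. That second call was lost in 9 of the 21 fits that leave out 1 library, with an adjusted p of up to 0.0766. The other 5 genes of the classical list did not pass in any comparison.

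*Cfp*, which encodes properdin, the stabiliser of the alternative convertase that leukocytes release, separated the ages. It was 4.8 to 11.5 CPM in young, 12.6 to 45.3 in saline and 11.8 to 40.4 in MCC950 libraries. The log2 fold change was 1.83 with age (SE 0.32, adjusted p = 0.000355) and 1.56 in MCC950 against young mice (0.31, 0.000629), and neither call was lost without any single library. MCC950 and saline mice overlapped (-0.27, 0.28, 0.538).

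For the terminal pathway, whose proteins assemble the membrane pore, counts were small. Young libraries held 0 to 6 counts of *C6* and 0 to 4 of *C7*, so both passed the filter on low counts only through the middle-aged groups. A rise against young mice was thus favoured in advance, and their p-values against young mice are no independent evidence of it. *C7* was at most 0.112 CPM in young and 0.256 to 2.06 in saline libraries, with a log2 fold change of 3.50 (SE 0.68, adjusted p = 0.000887), and it was 2.84 (0.68, 0.00294) in MCC950 against young mice. *C8g* was higher after MCC950, at 2.61 ± 1.15 CPM against 1.33 ± 0.29 in saline libraries (0.97, 0.25, 0.0140), and was 1.19 (0.28, 0.00216) against young mice. *C6* had a log2 fold change of 3.79 (1.16, 0.0303) between MCC950 and saline mice and of 5.27 (1.56, 0.0114) against young mice, but MCC950 replicate 8 alone, at 20 CPM, made up 93.5% of its group's sum. Without that library the values for *C6* were 0.09 (0.927) and 1.56 (0.0785).

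Among the receptors 5 of 10 were higher with age and 0 lower, beside the 12.2% and 12.4% of all genes. The integrin chains of complement receptors 3 and 4, *Itgam*, *Itgax* and *Itgb2*, which bind C3 fragments on phagocytes, had log2 fold changes of 1.28 (SE 0.31, adjusted p = 0.00435), 0.92 (0.26, 0.0146) and 0.90 (0.25, 0.0113). *Itgam* is also 1 of the 12 macrophage markers, whose score was 1.02 higher in the same comparison. With that score as a covariate *Itgax* and *Itgb2* no longer passed with age. *Itgam* was also higher in MCC950 than in young mice (0.89, 0.30, 0.0222), a call that was lost without young replicate 3 (0.0617) or MCC950 replicate 8 (0.0511). *C5ar1*, the receptor for the anaphylatoxin C5a, was 27 ± 13.3 CPM in young, 51.2 ± 14 in saline and 59 ± 29.7 in MCC950 libraries, with log2 fold changes of 1.13 in MCC950 against young mice (0.34, 0.0129) and 0.93 with age (0.35, 0.0550). *C1qbp*, a mitochondrial protein that can bind C1q, was higher by 0.33 with age (0.11, 0.0304) and by 0.59 in MCC950 against young mice (0.11, 0.000241), and the first of these was lost in 6 of 21 fits without 1 library.

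*Vsig4*, a receptor for C3 fragments on resident macrophages, had no count in any young library. With the limit that 3 counts over the young group allow, 0.0176 CPM, its saline mean of 0.314 CPM was at least 17.8-fold higher and its MCC950 mean of 1.03 CPM at least 58.4-fold higher, with adjusted p of 0.0153 and 0.000885. This limit covers counting error only. With no young count, *Vsig4* passed the filter on low counts only through the middle-aged groups. A rise against young mice was thus favoured in advance, and these p-values are no independent evidence of it. Neither difference passed when the libraries were thinned to equal depth, and the one with age also did not in a fit of the compared groups only. MCC950 replicate 8 held 58% of the MCC950 sum, and without it the remaining MCC950 libraries had a mean of 0.493 CPM (adjusted p = 0.000207 against young mice).

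**Figure D4:**
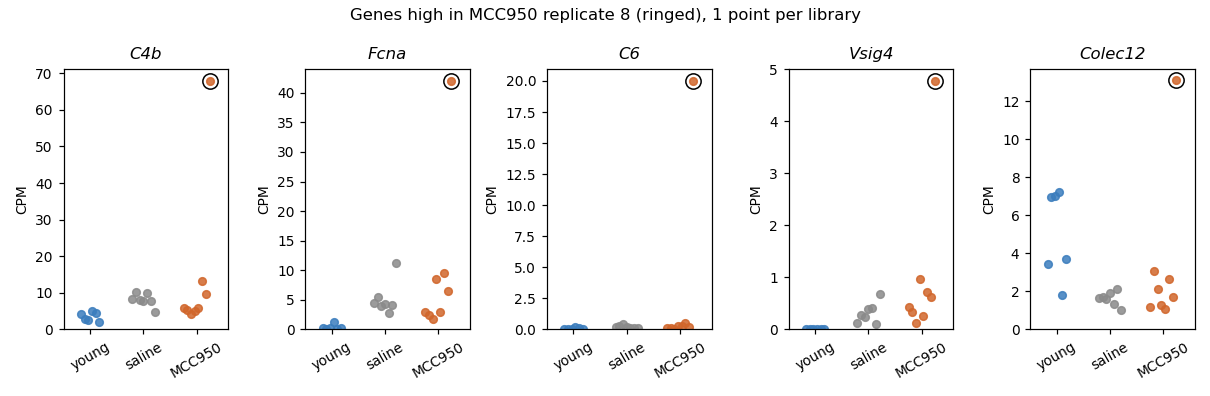
CPM of *C4b*, *Fcna*, *C6*, *Vsig4* and *Colec12* on linear axes, with 1 point per library and MCC950 replicate 8 ringed. Replicate 8 is the highest of the 21 libraries in each panel, at 68, 42, 20, 4.77 and 13.1 CPM, and the next MCC950 library has 13.3, 9.48, 0.476, 0.969 and 3.04 CPM.

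Replicate 8 of the MCC950 group thus stood apart in several genes of the pathway. These 5 genes were picked for that after their values were seen. It also had the highest *C1qa* and *C1qc* of its group, at 729 and 569 CPM, but there the next library was close, at 638 and 501 CPM. Its total of 40185592 counts, of which 57.89% were mitochondrial, was within the range of its group.

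Of the 10 fluid-phase and membrane regulators tested, 0 were higher and 1 lower with age, beside the same 12.2% and 12.4% of all genes. *Cd59a*, which blocks the membrane pore, was lower, at 27.5 ± 2.98 CPM in saline against 36.2 ± 5.56 in young libraries (log2 fold change -0.40, SE 0.12, adjusted p = 0.0153), and at -0.47 (0.11, 0.00253) in MCC950 against young mice, and the call with age was lost with the macrophage score as a covariate. *Cpn1*, the catalytic subunit of carboxypeptidase N, which trims the anaphylatoxins, was the 1 regulator that passed between MCC950 and saline mice. It was 18.1 to 28.5 CPM in MCC950 against 3.5 to 20.3 in saline libraries, with 6 of 8 MCC950 libraries above every saline one (log2 fold change 1.08, SE 0.24, adjusted p = 0.00704), and 1.32 (0.26, 0.000571) against young mice. *Cfi*, the protease that inactivates C3b and C4b, had means of 1.1 CPM in young, 1.26 in saline and 2.16 in MCC950 libraries. It was higher in MCC950 than in young mice (0.97, 0.31, 0.0160), though not in thinned libraries or with the proximal tubule score as a covariate, and its value against saline mice was 0.77 (0.28, 0.0605). *Susd4*, a membrane inhibitor, was lower in MCC950 than in young mice (-0.75, 0.18, 0.00351). With the proximal tubule score as a covariate, the 4 genes that were higher in MCC950 than in saline mice, *Mbl1*, *C6*, *C8g* and *Cpn1*, no longer passed, and in libraries thinned to equal depth *Mbl1*, *C6* and *C8g* did not pass either. Most calls were lost in this way, as 1957 higher genes of all became 388 with that score and 777 in thinned libraries. Thinning also ended the calls of *C1s1* against young mice in both comparisons and that of *Itgam* in MCC950 against young mice. The hepatocyte markers also differed between these groups, with a sum of 4.1 to 10.7 CPM in saline and 10.5 to 37.7 in MCC950 libraries and a score 1.31 higher (exact permutation test, 2-sided, p = 0.000311), and the part of such cells was not tested.

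**Figure D5:**
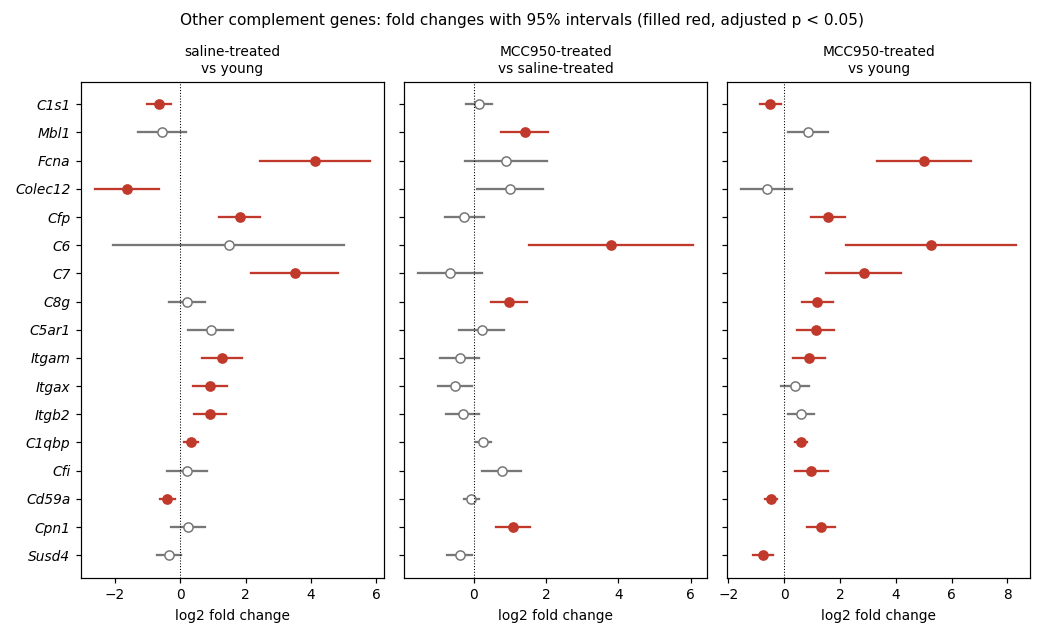
Log2 fold changes of 17 other complement genes that passed in at least 1 comparison, with 95% intervals and filled red points for an adjusted p under 0.05, *Vsig4* being left out because it had no young count. With age the filled points lie on both sides of 0, and between MCC950 and saline mice the 4 filled points, *Mbl1*, *C6*, *C8g* and *Cpn1*, lie to the right.

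Other cell types moved with these comparisons too. The podocyte marker score was 1.57 lower in saline than in young mice (exact permutation test, 2-sided, p = 0.00117, the smallest the design allows) and 0.47 higher in MCC950 than in saline mice (exact permutation test, 2-sided, p = 0.0109). Of the 10 podocyte markers 9 were lower with age. The mesangial and endothelial scores were each 1.09 lower with age, and the scores of B cells and T cells were 1.78 and 1.28 higher. With the podocyte score as a covariate, 5 of the 29 calls among the other complement genes were kept. Over all genes that score left 12 higher and 3 lower with age, from 1996 and 2038. The part of the cell makeup in the complement values was not tested beyond these covariates.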

How the data were processed

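mRNA was sequenced from podocyte fractions of 21 individual mice, grouped by their labels. The authors trimmed reads with Trim Galore, aligned them to mm10 with Bowtie2 and deposited whole read counts per gene from featureCounts, 1 table per library. The strand setting and the annotation release are not given in the sources used here. The authors also deposited signal values, in which each library's counts are divided by its DESeq2 size factor. They cover 20 libraries, saline replicate 6 having no column. These served only to check levels. No pair of libraries was a duplicate (lowest chi-square per degree of freedom 16.02 over 210 pairs).

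For the tests here, edgeR 4.0.16 was run under R 4.3.3 on these counts (TMM, filterByExpr by group, quasi-likelihood F test), with all 3 groups in 1 fit, on 16377 genes, with Benjamini-Hochberg adjustment. Each SE was obtained from the log2 fold change and the F statistic, as their quotient with F under a square root. The 95% intervals are 1.96 SE on each side, an approximation narrower than the F test gives. Alternatives were DESeq2 1.42.0 and the settings in the closing section. Levels are CPM with TMM-scaled library sizes, and depth sets their precision: total counts were 27375870 to 84876399. Log2 CPM used a prior count of 2. Lengths were exon lengths, coordinates those of GRCm38, and 25275 gene numbers had a RefSeq symbol. Exact permutation tests used scipy 1.17.1. Correlations are Pearson's r of deviations from the group mean and are descriptions. The code was tested on simulated data. Whether samples were separate litters or cages is not stated, so p-values measure the spread between these mice.

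The members, the marker lists, the list of other complement genes and the rule for named genes (all members, every other complement gene with an adjusted p under 0.05 in any comparison, and the 3 named genes most like each member) were chosen with earlier results of these data known.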

Additional observations from a re-analysis of the deposited data

Results flagged for a closer look

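Each of the 9 genes was checked in each of the 3 groups for a library far from the others (Dixon's test at its 95% critical value, 27 groups, of which chance marks about 1 in 20). These 4 values stood apart. *C3* was 24.8 CPM in saline replicate 3, where the other 6 saline libraries had 11.5 to 15.7. *C4b* was 68 CPM in MCC950 replicate 8, where the other 7 had 4.07 to 13.3. *Cd55* was 28.5 CPM in young replicate 6, where the other 5 had 10.3 to 13.5. *Cd55* was also 18.8 CPM in MCC950 replicate 3, where the other 7 had 7.5 to 12.4. Their causes were not tested.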

How the results depend on the processing

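The results were recomputed under 11 other settings and without each of the 21 libraries. The number of members that passed with age, 0 in the report, was 3 with DESeq2, 1 with a minimum of 10 counts in every library, 2 in a fit of the compared groups only, 1 with the macrophage score, 3 with the proximal tubule score as a covariate, and 1 at the threshold named in the study's methods, an unadjusted p of 0.05 with a fold change over 2. Leaving out 1 library gave 0 to 2. Between MCC950 and saline mice it was 0, or 2 with the podocyte score, and 0 to 1 without 1 library. Between MCC950 and young mice it was 1, or 3 with the macrophage score (*C2* and *Cfb* higher and *C3* lower, *C4b* not among them). There it was 0 with the podocyte score, 4 with the proximal tubule score (the C1q genes and *C4b*, all higher) and 1 to 3 without 1 library. The labels do not say whether replicate numbers pair the mice. The correlation of same-numbered libraries was -0.061 to 0.347 over 6 pairs of the first comparison and -0.144 to 0.335 over 7 pairs of the second. Differently numbered libraries were not compared, so these values cannot decide whether the mice were paired. With the number as a replicate block the 3 counts of members were 2, 2 and 3, *C4b* between MCC950 and saline mice was -0.26 and *Cr1l* with age was -0.00. The member counts in this paragraph are not set beside the share of all genes that passed under the same setting. They therefore do not set the members apart from other genes.

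Directions turned as follows, in log2 fold change. With the macrophage score as a covariate, *C1qa*, *C1qb*, *C1qc*, *C3* and *Cr1l* were -0.09, -0.25, -0.14, -0.44 and -0.08 with age, *C1qa*, *C1qb* and *C1qc* were 0.10, 0.20 and 0.18 between MCC950 and saline mice, and *C1qb* was -0.05 between MCC950 and young mice. With the podocyte score, *C2* and *Cfb* were both -0.85 with age, and *C2* and *C3* were -0.04 and 0.55 between MCC950 and young mice. With the proximal tubule score, *Cr1l* was -0.02 with age, *C1qa*, *C1qb*, *C1qc*, *C2*, *Cfb*, *Cd55* and *Cr1l* were 0.60, 0.78, 0.72, -0.26, -0.26, 0.07 and 0.04 between MCC950 and saline mice, and *C3*, *Cfb* and *Cr1l* were 0.23, -0.03 and 0.02 between MCC950 and young mice. *Cr1l* with age was -0.01 with DESeq2, -0.01 with RLE size factors and -0.19 with libraries thinned to 5804891 counts, where it was 0.02 between MCC950 and saline mice. *C4b* between MCC950 and saline mice was -0.25 with DESeq2. Without 1 library, *Cfb* with age ran from -0.10 to 0.27, *Cr1l* with age from -0.05 to 0.05, *C4b* between MCC950 and saline mice from -0.21 to 0.99, *Cd55* there from -0.29 to 0.00, and *Cr1l* between MCC950 and young mice from -0.10 to 0.00. These scores differ between the groups themselves, and the cause of the turns was not tested.

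Over all genes, 1996 higher and 2038 lower with age became 12 and 3 with the podocyte score and 1309 and 1134 in thinned libraries. Between MCC950 and saline mice, 1957 higher and 796 lower became 388 and 304 with the proximal tubule score, 777 and 498 in thinned libraries, and 1250 lower with DESeq2 and 1372 lower with the podocyte score. Without 1 library these 2 counts ran from 1008 to 2392 and from 515 to 1007. Between MCC950 and young mice, 3572 higher and 2705 lower became 118 higher and 1.5% of genes lower with the podocyte score, and 1981 higher in thinned libraries. Of 1185 recomputed values, 1060 were classed as unchanged. For fold changes this meant the same direction and side of the threshold, and for counts of calls a value within 1.5-fold of the main one. For levels it meant a move of less than the spread. The most shallow young library had 5804891 counts outside the mitochondrial genes, which limits genes under 1 CPM.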
